A study of Caenorhabditis elegans with 2 samples.

Results

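The nuclear hormone receptor genes of Caenorhabditis elegans were examined for binding of HIM-1, the SMC1 subunit of cohesin. The members were all protein-coding genes whose symbol begins with nhr- in the Ensembl annotation of WBcel235 (the assembly also called ce11), and there were 269 of them among 19973 protein-coding genes. Chromatin immunoprecipitation sequencing (ChIP-seq) had been done on whole hermaphrodites of strain YL576, a stably transgenic line in which HIM-1 carries a GFP-FLAG tag at its C terminus. The worms were L4 larvae and young adults, 51 hours after synchronization as starved L1 larvae, in 1 group of 2 biological replicates. The labels describe the antibody as anti-GFP in one place and as him-1 in another. All signal comes from 1 transgenic line and from all tissues of the animal together. A single control served for calling both replicates, and an immunoprecipitation from untagged worms was not analysed here, so HIM-1 signal was set only against other genes of the same lists.

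Nuclear hormone receptors are transcription factors with a zinc-finger DNA-binding domain and, in most members, a ligand-binding domain that can sense lipids and other small molecules. The family is greatly expanded in nematodes, largely from an ancestor related to HNF4, a receptor of liver and gut metabolism in mammals, while a small set has orthologues in insects and vertebrates. Cohesin is a ring-shaped complex that holds sister chromatids together and also shapes chromatin loops in cells that do not divide.

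Peaks were assigned to a member by their summit, which had to fall inside the gene or no more than 1000 bp from the 5' end of one of its protein-coding transcripts. The main list was the authors' optimal list of 1797 peaks, kept by the irreproducible discovery rate (IDR) procedure, which had signal values from 102.0 to 1042 with a median of 144. The pooled list of both replicates held 12228 entries, and the lists of replicates 1 and 2 held 16213 and 15469. These 3 lists include background entries, and their lowest signal values were 42.4, 23.8 and 17.9. Signal values are the authors' own, on an unstated scale, and were compared only within a list. Read depth is unknown, because the lists hold no counts of reads.

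Few nhr genes carried a HIM-1 peak, and most of those that did lay on the X chromosome. An optimal peak was assigned to 10 of the 269 nhr genes (3.72%, Wilson 95% interval 2.03 to 6.71), against 7.04% of all protein-coding genes. The 10 genes were nhr-1, nhr-3, nhr-14, nhr-17, nhr-40, nhr-48 and nhr-255 on X, nhr-47 and nhr-142 on V, and nhr-49 on I. Together they had 16 optimal peaks, which formed 13 separate sites because neighbouring peaks overlapped at nhr-40 and nhr-17. With 2 replicates in 1 group there was no test between conditions, and the intervals of shares cover counting error only.

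The following 5 peaks show the kinds of sequence found at the members. Each is given as the 201 bases centred on the summit, on the plus strand of WBcel235, read from the RefSeq copy of that assembly. The nhr-1 and nhr-40 sequences, at chrX:17513642-17513842 and chrX:2598996-2599196, are shown because they lie upstream of transcript starts and hold runs of GA repeats, and capitals mark GAGAGA or its complement CTCTCT. The nhr-142 sequence, at chrV:5790981-5791181, is the higher of the sites on V and has no such run.
nhr-1: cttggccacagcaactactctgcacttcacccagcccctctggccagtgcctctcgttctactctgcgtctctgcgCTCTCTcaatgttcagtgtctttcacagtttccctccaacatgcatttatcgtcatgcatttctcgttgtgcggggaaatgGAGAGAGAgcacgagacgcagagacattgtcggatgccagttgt
nhr-40: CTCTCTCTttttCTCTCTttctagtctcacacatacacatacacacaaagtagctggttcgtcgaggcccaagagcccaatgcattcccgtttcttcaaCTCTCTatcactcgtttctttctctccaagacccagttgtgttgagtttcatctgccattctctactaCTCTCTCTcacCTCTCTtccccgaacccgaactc
nhr-142: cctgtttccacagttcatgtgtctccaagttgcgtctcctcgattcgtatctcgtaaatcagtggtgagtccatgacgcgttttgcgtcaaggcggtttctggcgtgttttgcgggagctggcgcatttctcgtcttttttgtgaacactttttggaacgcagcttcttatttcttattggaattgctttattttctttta
The nhr-17 and nhr-255 sequences, at chrX:12665100-12665300 and chrX:15741960-15742160, are shown because each holds tRNA gene sequence, in capitals. The nhr-255 summit lies inside its tRNA gene. The nhr-17 summit lies 28 bp outside its tRNA gene, of which 73 of 84 bases are printed.
nhr-17: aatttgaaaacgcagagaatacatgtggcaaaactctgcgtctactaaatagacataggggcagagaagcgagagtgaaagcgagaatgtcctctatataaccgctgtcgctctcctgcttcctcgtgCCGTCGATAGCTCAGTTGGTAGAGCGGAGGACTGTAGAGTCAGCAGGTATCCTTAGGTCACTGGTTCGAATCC
nhr-255: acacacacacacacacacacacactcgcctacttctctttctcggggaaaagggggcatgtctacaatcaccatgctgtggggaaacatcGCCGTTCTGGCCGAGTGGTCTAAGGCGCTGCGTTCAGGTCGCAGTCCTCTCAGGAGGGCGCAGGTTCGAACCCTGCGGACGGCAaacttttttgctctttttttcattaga

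The share of nhr genes with a peak differed from chromosome to chromosome. On X, 7 of 23 nhr genes had an optimal peak (30.4%, interval 15.6 to 50.9), against 8.42% of all protein-coding genes of X. With summits counted only within 500 bp of a 5' end it was 3 of 23 (13.0%, interval 4.54 to 32.1), an interval that included the 4.87% of other X genes. V holds 167 of the 269 nhr genes (62.1%, against 25% of all protein-coding genes). Of these 2 had an optimal peak (1.20%, interval 0.329 to 4.26). That interval included the 4.06% of all genes of V with a peak. On I 1 of 23 nhr genes had one (4.35%), against 9.94%. None of 15 on II, 8 on III or 33 on IV had one, where 6.06%, 10.1% and 6.49% of all genes did. The upper limits of the intervals for these zero counts were 20.4%, 32.4% and 10.4%, all above the share of all genes, so a lower share than that of the chromosome was not detectable with so few genes.

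**Figure D1:**
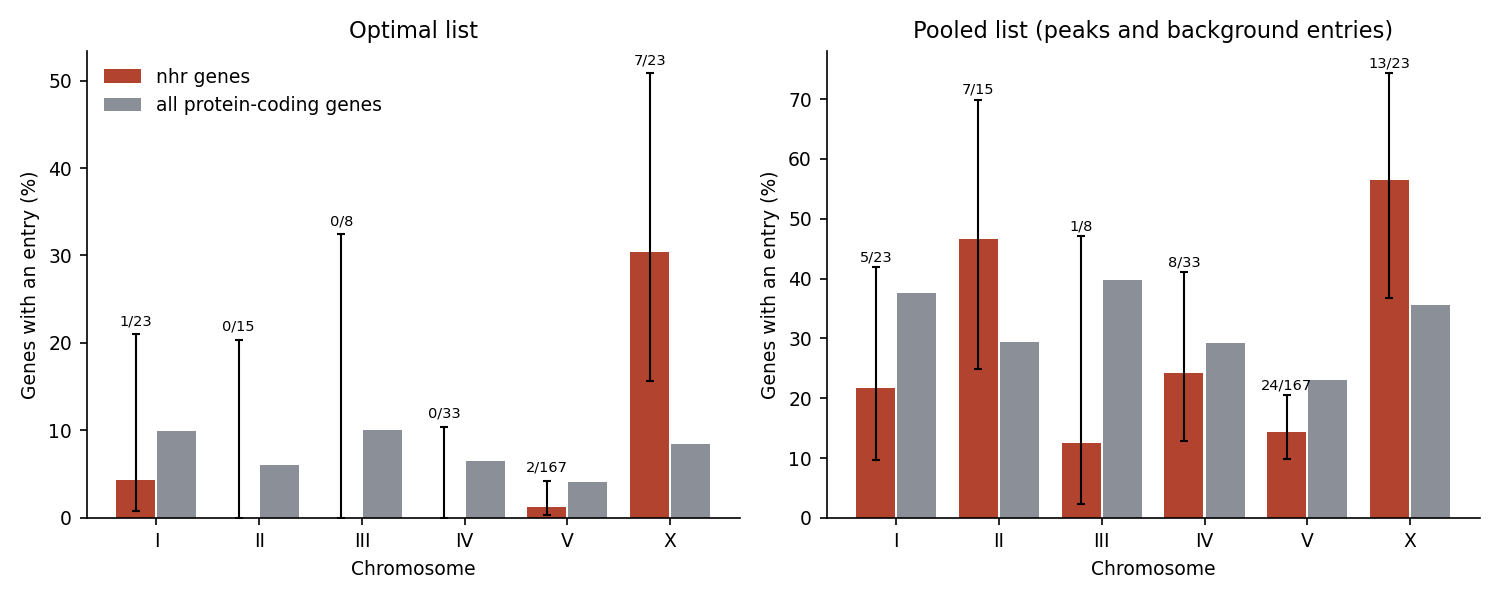
Percentage of nhr genes (red) and of all protein-coding genes (grey) with an entry in the optimal list (left) and in the pooled list (right), by chromosome; error bars are Wilson 95% intervals, which cover counting error only, and numbers give nhr genes with an entry over nhr genes. In the optimal list the nhr share is 30.4% on X and 1.20% on V, against 8.42% and 4.06% of all genes.

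Most nhr genes lie on V, the chromosome with the lowest share of genes with a peak. When the share among other genes of each chromosome was weighted by the number of nhr genes there, it came to 5.59%, against 7.09% of the 19704 other genes without weights and 3.72% of the nhr genes. The interval of the nhr share, 2.03 to 6.71, included that 5.59%. The X members were also long, and long genes offer more sequence to the rule. The median length of nhr genes on X was 4483 bp, against 2532 bp for other genes of X. Within length classes on X, a peak was found at 1 of 4 nhr genes under 2000 bp (3.29% of other genes), 3 of 11 from 2000 to under 5000 bp (27.3%, against 9.15% of other genes) and 3 of 8 of 5000 bp and over (37.5%, against 15.9%). These classes rest on few genes, and the member under 2000 bp was nhr-255, whose summit lay inside a tRNA gene. The part of gene length in the share on X was not tested. Of the 9 nhr genes in the outer parts of X (25% of the length at each end) 5 had a peak (8.46% of other genes), and of the 14 in the centre 2 did (8.03% of other genes).

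The 2 members with a peak on V lay apart from other nhr genes, in the chromosome centre (the middle 50% of its length) but near its left edge. Many nhr genes of V lie in arrays, and 112 of the 167 were within 5000 bp of another nhr gene, against 6 of 23 on X. None of these 112 had an optimal peak, and 2 of the other 55 did, namely nhr-47 and nhr-142, which lay 146381 and 276001 bp from the nearest other nhr gene. Both shares are to be read beside the 4.06% of all genes of V, to which 2 of 55 is close. In the pooled list 12 of the 112 (10.7%) and 12 of the 55 (21.8%) had an entry, against 23.3% of other genes of V. The share of the 55 was close to that of other genes and the share of the 112 was lower, with no test of the difference. In the outer parts of V no nhr gene had a peak (2.43% of other genes), and in the centre 2 of 56 did (3.57%, against 5.69% of other genes). By length, 0 of 65 nhr genes under 2000 bp, 2 of 94 from 2000 to under 5000 bp and 0 of 8 longer ones had a peak on V, against 2.60%, 4.47% and 12.7% of other genes.

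The peaks at nhr genes were of middling signal. Their ranks ran from 254 to 1457 of the 1797 optimal peaks, with a median signal of 157, against 144 over all optimal peaks, and 9 of the 16 were above that overall median. No peak ranked above 254 was at an nhr gene. The optimal peaks linked to any gene of X had a median of 150.

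**Figure D2:**
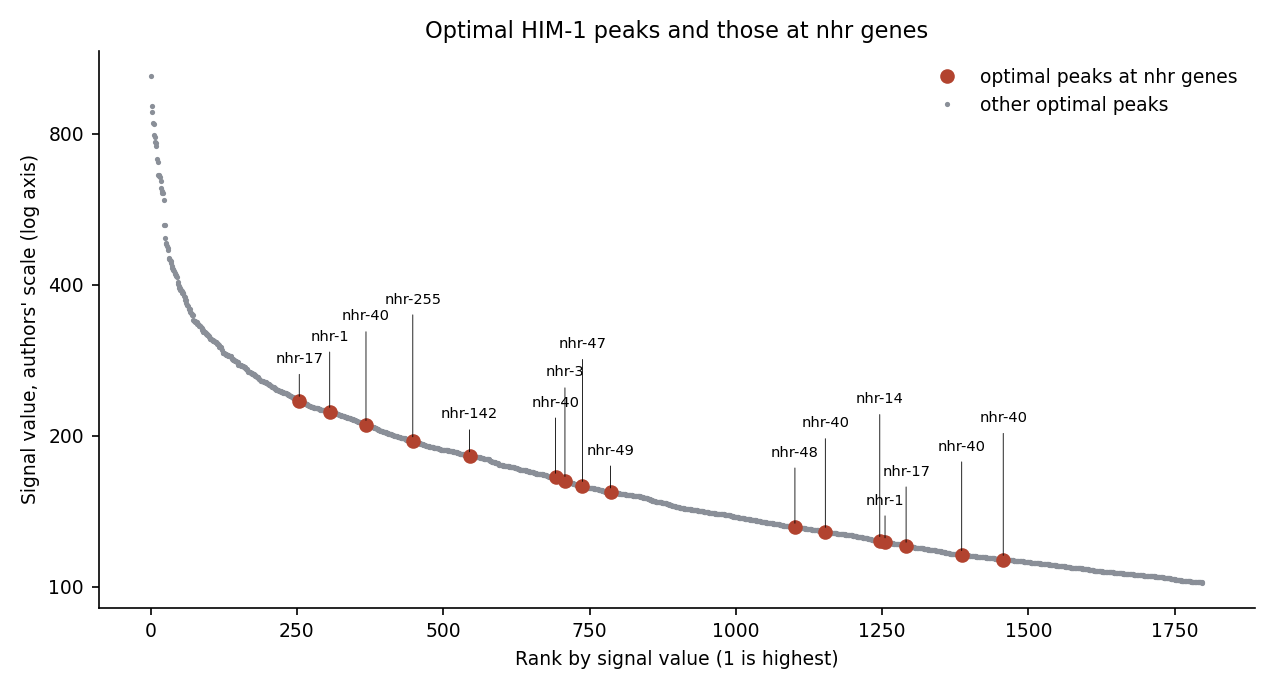
Signal value (log axis, the authors' scale) against rank for the 1797 optimal peaks, with the 16 peaks at nhr genes in red and labelled, and other peaks in grey. The peaks at nhr genes lie between ranks 254 and 1457, and none is in the steep part of the curve.

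The highest peak at a member lay in an intron of nhr-17 (WBGene00003616, minus strand, 4018 bp). Its signal was 235.2 in the pooled list (rank 254), 153 in replicate 1 (rank 200 there) and 80.7 in replicate 2 (rank 483). The peak, at chrX:12664965-12665434, had its summit 2654 bp inside the gene and 28 bp from a tRNA-Tyr gene (WBGene00009555, chrX:12665228-12665311), which lies in that intron. An overlapping peak at chrX:12665164-12665633 had its summit 88 bp from the same tRNA gene, with signals of 120, 77.0 and 27.1 in the pooled, replicate 1 and replicate 2 lists. The sequence of this tRNA gene occurs 6 times in the genome, so reads that lie wholly within it match several places equally well.

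At nhr-255 (WBGene00014068, plus strand, 1689 bp) the upstream peak had its summit inside a tRNA gene. This peak, at chrX:15741825-15742294, had signals of 195 (rank 448), 134 in replicate 1 (rank 303) and 68.9 in replicate 2 (rank 713). The summit was 550 bp upstream of the 5' end and inside a tRNA-Leu gene (WBGene00014626), whose sequence occurs 2 times in the genome. In all, 3 of the 13 X peaks at nhr genes (23.1%) lay within 250 bp of a tRNA gene, against 13.96% of the X peaks linked to any protein-coding gene. Of these 3, the 2 overlapping nhr-17 peaks lay at the same tRNA gene. Without all optimal peaks at tRNA genes, a choice made after seeing the data, 5 of 23 nhr genes of X had a peak (21.7%), against 7.18% of all genes of X.

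The longest of the members with peaks were nhr-1 and nhr-40, and each had peaks just upstream of an internal transcript start. At nhr-1 (WBGene00003600, plus strand, 14135 bp) the peak at chrX:17513507-17513976 had signals of 224 (rank 306), 153 in replicate 1 (rank 196) and 84.4 in replicate 2 (rank 421), with its summit 321 bp upstream of the outermost of 4 annotated 5' ends. A weaker peak at chrX:17519466-17519935 had signals of 123, 73.7 and 52.0 in the pooled, replicate 1 and replicate 2 lists, and its summit was 34 bp upstream of an internal 5' end. Both nhr-1 peaks were present in both replicates among the highest 1797 entries.

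nhr-40 (WBGene00003630, plus strand, 12730 bp), which acts in the development of muscle, had 5 optimal peaks, and only 7 protein-coding genes had 5 or more. Those 7 genes had a median length of 16587 bp. The highest, at chrX:2598861-2599330, had signals of 211 (rank 368), 114.01 in replicate 1 (rank 477) and 113.46 in replicate 2 (rank 161). Its summit was 312 bp upstream of the second of 2 annotated 5' ends, which lies 5405 bp downstream of the first, and it was the 1 peak at a member with nearly equal signals in both replicates. A peak overlapping it, with its summit 103 bp upstream of the same 5' end, had 116 in the pooled list, 53.2 in replicate 1 and 66.3 in replicate 2.

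The other nhr-40 peaks lay away from both 5' ends. The peak at chrX:2604631-2605100, in an intron 5458 bp past the nearest 5' end, had signals of 165, 112 in replicate 1 and 51.4 in replicate 2. The peak overlapping it had its summit in coding sequence and signals of 113, 89.9 and 36.1 in the pooled, replicate 1 and replicate 2 lists. The peak at chrX:2595200-2595669, in an intron, had 129, 79.4 and 39.9, and its replicate 2 entry was at rank 2198, below the highest 1797 entries of that list.

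**Figure D3:**
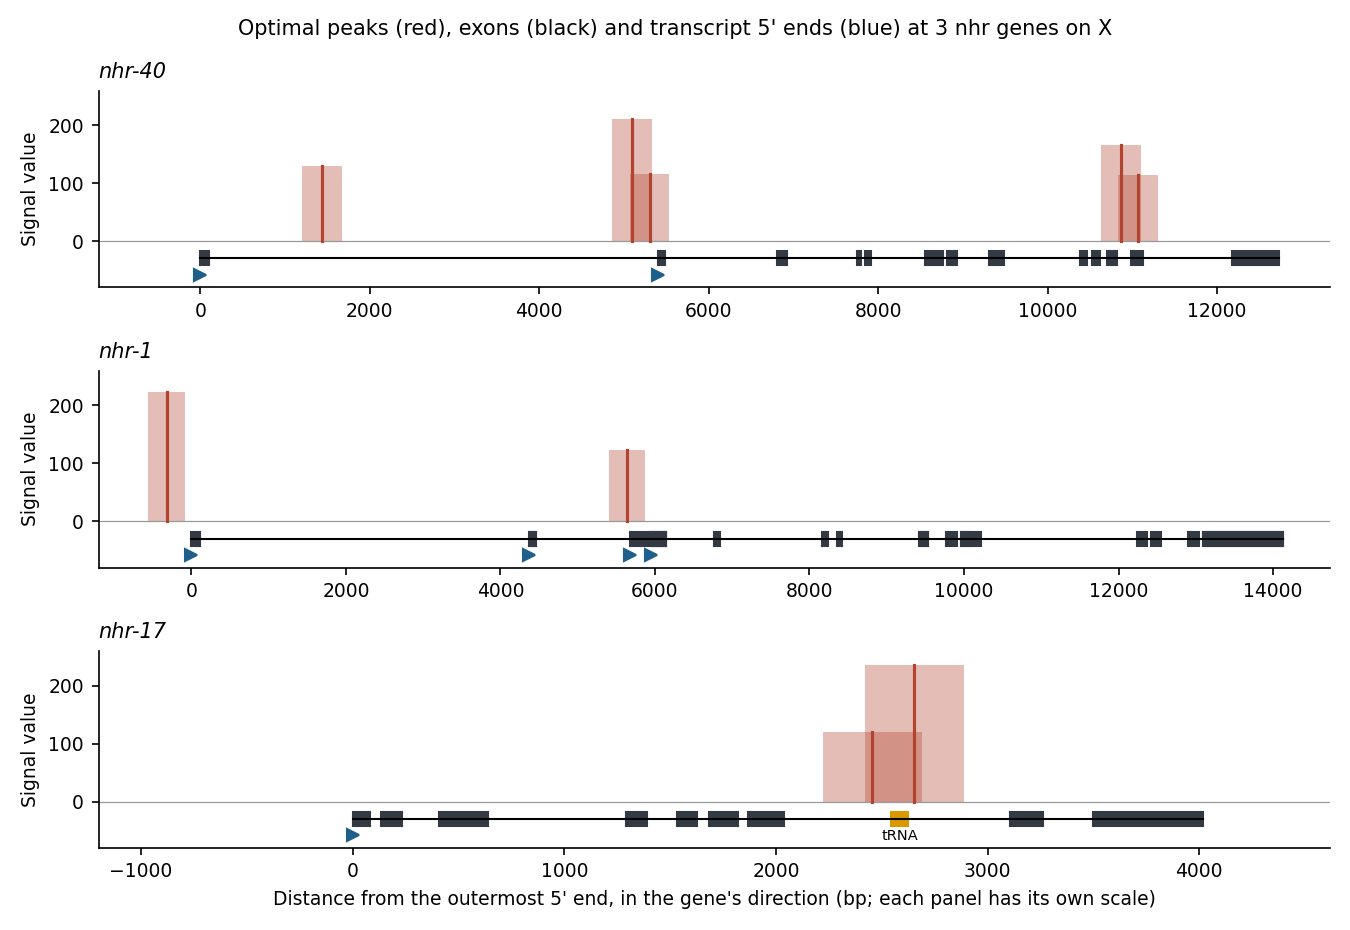
Optimal peaks (red boxes as wide as the peak, height is the pooled signal value, with a line at the summit) along nhr-40, nhr-1 and nhr-17, with exons in black, annotated transcript 5' ends as blue arrowheads and the tRNA gene of nhr-17 in yellow; the x axis is distance from the outermost 5' end in bp. At nhr-40, 2 overlapping peaks have their summits just before the internal 5' end at 5405 bp, and the 2 at nhr-17 lie over the tRNA gene.

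The remaining X members had 1 peak each. At nhr-3 (WBGene00003602) the peak at chrX:14560252-14560721 was intronic, 1983 bp past the 5' end, with signals of 163 (rank 708), 110 in replicate 1 and 59.1 in replicate 2. At nhr-48 (WBGene00003638), a receptor of the group that includes DAF-12 and the vitamin D receptor of vertebrates, the peak at chrX:15707330-15707799 was 648 bp upstream, with signals of 131 (rank 1101), 75.0 and 62.04 in the pooled, replicate 1 and replicate 2 lists. At nhr-14 (WBGene00003613), an HNF4-type receptor, the peak at chrX:8476263-8476732 was 320 bp upstream, with signals of 124 (rank 1246), 71.4 and 51.0 in the same lists. The peaks of nhr-48 and nhr-14 were in the lower-signal part of the optimal list, below its median of 144.

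The autosomal peaks lay at 5' ends, and those on V were also close to a neighbouring gene. The peak upstream of nhr-142 (WBGene00018430), at chrV:5790846-5791315, had signals of 182 (rank 545), 115.02 in replicate 1 and 67.2 in replicate 2. Its summit was 528 bp upstream of nhr-142 and 149 bp from a 5' end of F44E7.9, so the 5' end of F44E7.9 was the nearer. The peak at nhr-47 (WBGene00003637), at chrV:5505066-5505535, had signals of 159 (rank 738), 95.0 and 69.6 in the pooled, replicate 1 and replicate 2 lists. Its summit was 48 bp inside the gene, in annotated UTR, and 444 bp from a 5' end of dnj-19, which encodes a DnaJ-type co-chaperone. These were the 2 of 16 peaks (12.5%) that the rule also assigned to another protein-coding gene, against 25.3% of all optimal peaks linked to a gene.

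The peak at nhr-49 (WBGene00003639), an HNF4-related receptor that controls fat desaturation and mitochondrial beta-oxidation, lay at chrI:9869002-9869471, 414 bp upstream of the outermost 5' end. It had signals of 154 (rank 786), 85.4 in replicate 1 (rank 938) and 65.2 in replicate 2 (rank 813). Its replicate summits lay 94 and 96 bp from the optimal summit, on the same side.

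The peaks at nhr genes were present in both replicates, with replicate 1 signals mostly above those of replicate 2. Of the 16 peaks, 15 (93.8%) overlapped an entry among the highest 1797 of each replicate, against 75.9% of all optimal peaks. The IDR procedure had already selected all of these peaks for agreement between replicates. The 2 shares were not matched for rank, and no member's peak ranked below 1457. Taking the replicate entry whose summit was nearest, the signal of replicate 1 over that of replicate 2 had a median of 1.76 at the members, from 0.803 to 2.84, while the median over all optimal peaks was 1.42, with 10th and 90th percentiles of 0.976 and 2.11. Spearman's rho of the replicate signals over the 16 peaks was 0.615, as a description of peaks chosen by pooled signal and called against 1 control. No test was made of these differences from other peaks.

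**Figure D4:**
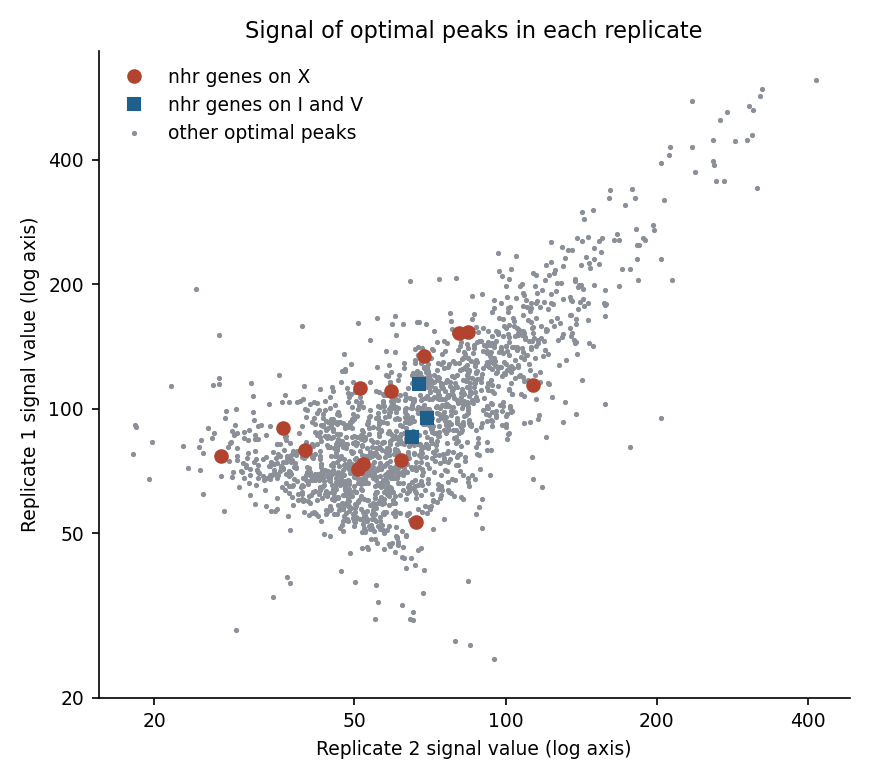
Replicate 1 against replicate 2 signal value (log axes, the authors' scale) of the replicate entry nearest each optimal peak, for nhr genes of X (red circles), nhr genes of I and V (blue squares) and other peaks (grey). The 16 peaks at nhr genes lie within the cloud of other optimal peaks, with 1 nhr-40 peak at nearly equal signals of 114.01 and 113.46.

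Peaks at nhr genes lay in introns more often than those at other genes, counted as pairs of gene and peak. Of the 16 pairs 8 were intronic (50.0%, against 28.5% of 1644 pairs at other genes) and 6 upstream of the gene (37.5%, against 61.6%). On X alone 8 of 13 were intronic (61.5%), against 36.6% of 273 pairs at other genes. Within 500 bp of a 5' end there were 7 of 16 (43.8%), against 56.9%. These classes overlap, since a summit inside the gene and outside its exons counted as intronic even near an internal 5' end. The nhr-40 summits 312 and 103 bp, and the nhr-1 summit 34 bp, upstream of internal 5' ends counted as both. Of the 8 intronic pairs nhr-40 gave 4 and nhr-17 gave 2, so these shares describe few genes, and no test was made of the difference. By genes with a summit within 500 bp of a 5' end, the members were 5 of 269 (nhr-1, nhr-14, nhr-40, nhr-47 and nhr-49), against 4.50% of all protein-coding genes.

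The limit of 1000 bp was not close to any peak outside a gene. The peaks just inside it were at 528 bp (nhr-142), 550 bp (nhr-255) and 648 bp (nhr-48). By distance from a 5' end, the nearest outside it was 2038 bp upstream of nhr-34 on IV, with a signal of 102.4. The peak at chrV:15873720-15874189 (signal 156, rank 771) overlapped the 3' end of nhr-102, but its summit lay outside the gene, 2453 bp from the 5' end. Counting any overlap by 1 bp added nhr-102 alone, giving 4.09% of nhr genes, against 8.17% of all genes. A pair of peaks 2379 and 2578 bp upstream of nhr-88 on II had signals of 154 and 274, and the higher of these, at rank 161, exceeded every peak assigned to a member.

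In the permissive lists nhr genes were again below all genes overall and above them on X. An entry of the pooled list was assigned to 58 nhr genes (21.6%, interval 17.1 to 26.9), against 31.2% of all protein-coding genes. In replicate 1 it was 72 (26.8%), against 37.4%, and in replicate 2 it was 78 (29.0%), against 39.3%. Weighted by the number of nhr genes on each chromosome, the shares of other genes were 27.1% (pooled), 33.7% (replicate 1) and 34.5% (replicate 2). The nhr interval lay just below the weighted share in the pooled list and below it in replicate 1 (21.8 to 32.4). In replicate 2 the interval (23.9 to 34.7) included it. On X 13 of 23 nhr genes had a pooled entry (56.5%, interval 36.8 to 74.4, against 35.5% of all genes of X). On V it was 24 of 167 (14.4%, interval 9.85 to 20.5, against 23.3% of other genes of V). On II it was 7 of 15 (46.7%), and the interval of 24.8 to 69.9 included the 29.4% of all genes of II. Counted as pairs of gene and pooled entry, the 23 X genes gave 44 of 117 and the 167 V genes gave 25. An entry assigned to 2 neighbouring nhr genes counts for each in these pairs. Of the 44 on X, nhr-40 gave 11, nhr-27 gave 10 and nhr-1 gave 7. Such pairs were not counted for other genes. Of the nhr genes with an entry in replicate 1's list 58.3% also had one in that of replicate 2, and 53.8% in the other direction. No list held an entry at 159 of the 269 nhr genes. Neither this absence nor the sharing between replicates was counted over all protein-coding genes, so both describe nhr genes only.

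**Figure D5:**
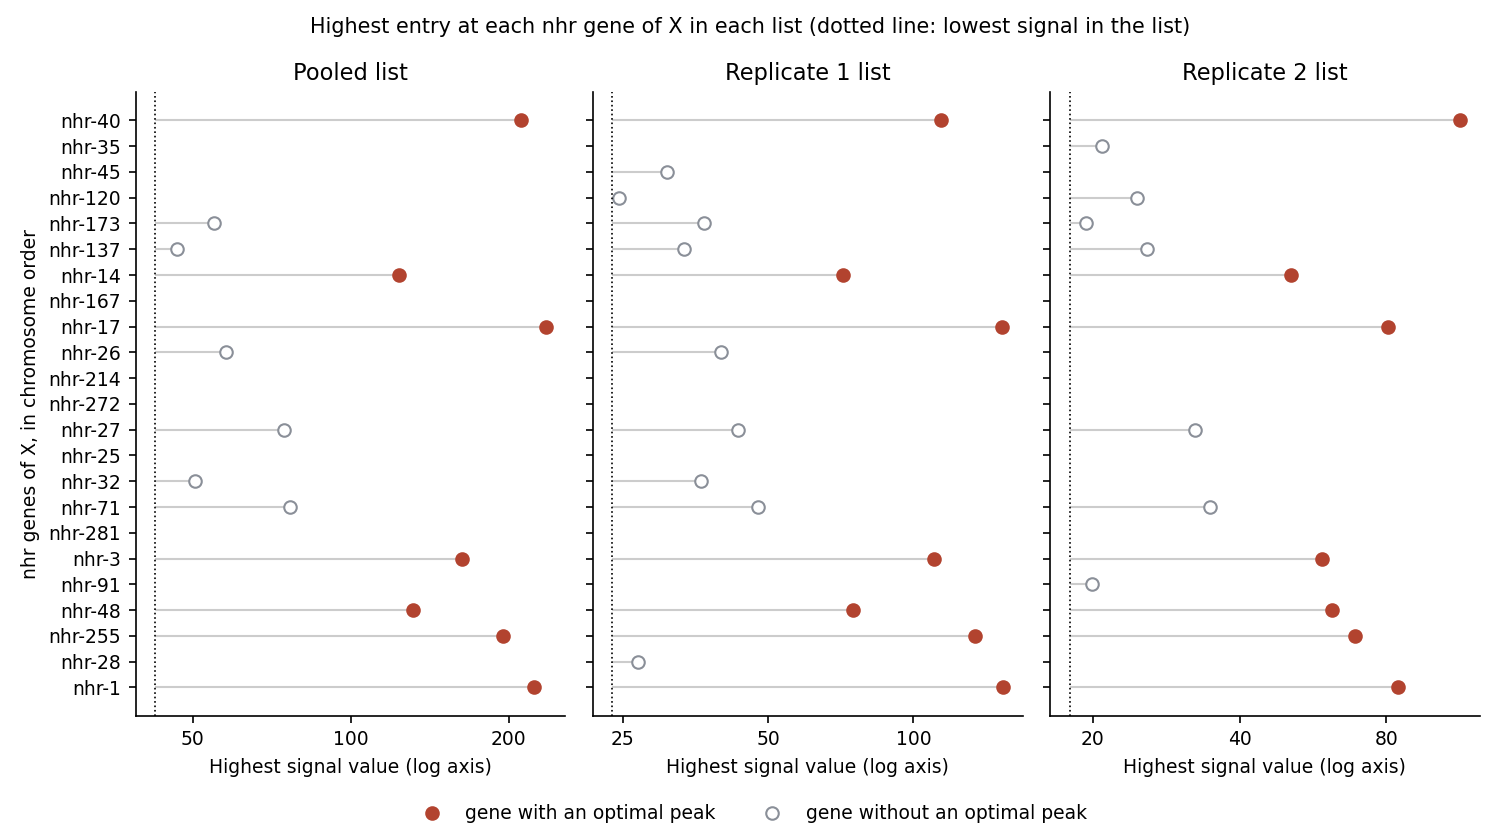
Highest signal value (log axis, a scale of its own in each list) of any entry at each of the 23 nhr genes of X, in chromosome order, in the pooled, replicate 1 and replicate 2 lists; filled circles are the 7 genes with an optimal peak, open circles the others, genes without a circle have no entry in that list, and the dotted line is the lowest signal in the list. The 7 genes have the highest values in each of the 3 lists, from 124 to 235.2 in the pooled list, where the next is nhr-71 at 76.6.

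The members nearest to the optimal list lay on II, IV and X and were 4483 bp or longer. The 8 highest pooled signals among genes without an optimal peak were at nhr-46 (96.9, IV), nhr-88 (95.1, II), nhr-21 (84.4, II), nhr-66 (80.1, IV), nhr-71 (76.6, X), nhr-41 (74.8, IV), nhr-27 (74.7, X) and nhr-119 (74.2, II). The values given for a gene in each list are those of its highest entry there, which need not lie at the same place in the gene. nhr-46 had 50.4 in replicate 1 and 47.3 in replicate 2, which was rank 1575 in that list. The highest entries at nhr-88 lay at different places, in an intron 191 bp upstream of a 5' end in replicate 1 (63.2, rank 1725) and in UTR 7960 bp past the nearest 5' end in replicate 2 (43.9, rank 1812). nhr-27, whose annotation spans 102756 bp, had 10 pooled entries and no optimal peak.

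Of 12 receptors with orthologues outside nematodes 2 had an optimal peak, nhr-14 and nhr-48, both on X, and 4 had a pooled entry. Over all protein-coding genes the shares were 7.04% and 31.2%, and the counts of this list and of the role lists that follow are too small to be set apart from them. The moulting regulators nhr-23 and nhr-25, the tailless-type receptor nhr-67, nhr-111 and nhr-239 had no entry in any list. nhr-41, of the TR2/TR4 type, had 74.8 in the pooled list, 65.99 in replicate 1 and 29.4 in replicate 2, and nhr-85, of the Rev-erb type, had 48.04 in the pooled list, 32.3 in replicate 1 and no entry in replicate 2. nhr-6, which acts in spermatheca development, had only low replicate entries (31.5 in replicate 1 and 22.96 in replicate 2), as had nhr-8 in replicate 2 (23.7) and nhr-91 in replicate 2 (19.9).

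Among 9 receptors of fat and nutrient metabolism, nhr-49 alone had an optimal peak and 5 had a pooled entry, beside 7.04% and 31.2% of all genes. nhr-66 and nhr-80, which work with nhr-49 in lipid metabolism, had 80.1 and 62.6 in the pooled list, nhr-64 had 52.3 and nhr-68, a regulator of propionate breakdown, had 55.03. nhr-13 and nhr-114 had only a replicate 1 entry (28.0 and 26.9), and nhr-10 and nhr-62 had none. None of 5 genes of xenobiotic and pathogen response (nhr-8, nhr-28, nhr-45, nhr-86 and nhr-176) had a pooled entry, beside 31.2% of all genes and 21.6% of nhr genes, and their highest replicate 1 signal was 30.8, at nhr-45. Of 7 genes of embryo and larval development nhr-40 had the only optimal peaks, beside 7.04% of all genes, and nhr-2 had a pooled entry of 44.6. nhr-60, like nhr-23, nhr-25 and nhr-67, had no entry in any list.

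Nuclear receptors with other symbols, and partners of the pathway, were read for context. Of daf-12, fax-1, unc-55, sex-1 and odr-7, daf-12 had an optimal peak, beside 7.04% of all genes. daf-12, on X, is the steroid receptor that decides between reproductive growth and the dauer larva. Its intronic peak had signals of 331 (rank 85), 223 in replicate 1 and 120 in replicate 2, above every peak at an nhr gene. Of 9 partner genes 2 had an optimal peak, beside 7.04% of all genes. They were din-1, which encodes a corepressor of DAF-12, with a highest signal of 193, and acs-2, a fatty acid oxidation gene activated by NHR-49, with 116. The daf-12 and din-1 genes are 30968 and 18840 bp long, and of genes of 5000 bp and over outside the nhr family 14.6% had a peak. The desaturase genes fat-5, fat-6 and fat-7 had no entry in any list.

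Letters at the peaks of nhr genes were counted beside those at all optimal peaks, with no test of the differences. The motif GAGAGA (or CTCTCT on the other strand) lay within 150 bp of the summit at 9 of 16 peaks (56.3%), against 50.5% of all optimal peaks. The nhr-40 peak printed above had 7 matches in its 301 bases and the nhr-1 peak 3, with overlapping matches counted. In windows of the same length at the outermost 5' end, the motif was found at 26.0% of nhr genes and 17.8% of all protein-coding genes. The hexamer AGGTCA (or TGACCT), which many nuclear receptors bind, was at 2 of 16 peaks (12.5%), both overlapping peaks of nhr-17, against 5.12% of all optimal peaks, 11.5% of 5' ends of nhr genes and 7.93% of all 5' ends. The match that both nhr-17 windows share lies inside the tRNA-Tyr gene printed above. The median GC content of the 301 bases was 42.9% at the peaks of nhr genes, from 32.9% to 51.5%, and 43.5% at all optimal peaks.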

How the data were processed

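The lists were narrowPeak files in ce11, in which the authors had called entries for each replicate and for both replicates' alignments pooled, each against a control, and had thresholded them by IDR into an optimal list, per the text deposited with each sample. Column 7 holds the signal value, a score the authors deposited as given by their caller. The sources used here name no aligner or caller. The ce10 lists were not used here. Genes came from Ensembl release 115 (WBcel235). A summit was column 2 plus column 10. Entries were ranked by signal within their list. Shares carry Wilson 95% intervals, which cover counting error only. No test between groups was possible with 1 group, and shares are set beside those of all protein-coding genes. The placement of summits was tested on simulated summits. Named genes were all members with an optimal peak, the 8 highest others in the pooled list, and the lists by role, which were chosen, like the members, with earlier results of these data known. Alternatives changed the window, the gene body, the 5' ends, the overlap, the threshold and the replicates. Python 3.11.15, NumPy 2.4.6, SciPy 1.17.1, pandas 2.3.3 and matplotlib 3.10.9 were used.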

Additional observations from a re-analysis of the deposited data

How the results depend on the processing

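With a 250 bp window and the gene body kept, an optimal peak was found at 1.86% of nhr genes and 4.49% of other genes. It was found at 17.4% of nhr genes on X (5.24% of other X genes) and at 0.599% of those on V (2.63% of other V genes). With a 500 bp window and no gene body the shares were 1.86% and 4.53%. They were 13.0% on X (interval 4.54 to 32.1, which includes the 4.87% of other X genes) and 0.599% on V (2.80% of other V genes). With 500 bp and the gene body the V share was again 0.599% (3.52% of other V genes), because nhr-142 was lost. Among the 50% of optimal peaks with the highest signal 3.70% of other genes and 2.97% of nhr genes had one. Counted from the outermost 5' end, 25% of the peaks at nhr genes lay within 500 bp, a share not counted in this way for other genes. The other 39 shares stayed within 1.5 times their count. Of the ranks of the members' highest peaks in single replicates, 16 also stayed within 1.5 times and 4 did not. These 4 were nhr-17 (254 to 483), nhr-40 (368 to 161) and nhr-255 (448 to 713) in replicate 2, and nhr-1 (306 to 196) in replicate 1. The 10 genes were all found in replicate 2's highest 1797 entries, with nhr-46 added, and in those of replicate 1, with nhr-41 and nhr-88 added. That made 4.09% of nhr genes in replicate 2, against 7.24% of all genes, and 4.46% in replicate 1, against 6.76%. No paired analysis was possible because there was 1 group. Unknown depth limits what the absence of an entry means.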
